A study of Mus musculus with 5 samples.

Results

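Endothelial transcripts were examined in cells captured by laser from the intervillus areas of the newborn mouse gut, in 10 genes (Plvap, Cdh5, Pecam1, Kdr, Flt1, Tek, Tie1, Esam, Cldn5 and Emcn) out of 22869 gene symbols measured. Members were taken by symbol, with the transcript row of highest mean count for each gene. All 10 were found, and all 10 passed the filter on low counts, with 83 to 812 reads in every library. The mutant group was 2 libraries (numbered 4 and 6) of genotype Dnmt1 L/L; VillinCre, and the control group was 3 libraries (numbered 1, 2 and 3) of littermates of genotype Dnmt1 L/+, for which the labels name no Cre. Both groups were proximal jejunum at postnatal day 0, fixed in methacarn and embedded in paraffin. The mutant areas were chosen as negative for the proliferation protein Ki67 and the control areas as positive, so loss of Dnmt1 and that choice of areas cannot be told apart. The Villin promoter is active in gut epithelium and not in vessels, so the endothelial cells of the mutants are not the cells in which the driver removes Dnmt1.

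Endothelial cells line blood vessels and form a capillary bed directly beneath the epithelium of each villus and of the intervillus region. They are known by a small set of proteins: adhesion and tight junction proteins at their borders (Cdh5, Pecam1, Esam, Cldn5), proteins of their surface and pores (Plvap, Emcn), the receptors of vascular endothelial growth factor (Kdr, Flt1) and the receptors of the angiopoietin system (Tek, Tie1). Epithelial cells are known to make little of these transcripts, which is why they serve as markers of vessel cells.

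The libraries held 8730268 and 10260760 reads in mutants, and 13356901, 13101286 and 10530200 in controls, counted with 1 row per gene. Dnmt1 averaged 39.1 CPM in mutants and 115.5 CPM in controls (log2 fold change -1.56 ± 0.16, SE; edgeR adjusted p = 3.74e-05), and Mki67, the transcript of the Ki67 protein, fell by 0.84 ± 0.15 on the log2 scale (edgeR adjusted p = 0.00284). CPM are counts scaled to library size, and edgeR means its quasi-likelihood test with Benjamini-Hochberg adjustment over all rows tested. Reads of 4 Y-linked genes (Uty, Kdm5d, Eif2s3y, Ddx3y) came to 4 and 3 in mutants, against 3160, 2900 and 2710 in controls, so every difference below is also one between libraries without and with Y-linked transcripts. For the labelled intervillus epithelium, 10 epithelial markers (Epcam, Cdh1, Vil1 and others) summed to 4221.1 and 4040.1 CPM in mutants, against 4126.4, 4333.8 and 4404.6 CPM in controls. The labels do not state whether the libraries are of different mice, and p-values then reflect library-to-library spread that could be technical.

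Endothelial transcripts were present in every captured library, at a somewhat higher summed level in mutants. Reads of the 10 genes summed to 2938 and 3220 in mutants, against 3372, 3392 and 3120 in controls, which is 0.0337% and 0.0314% of mutant reads against 0.0252%, 0.0259% and 0.0296% of control reads. On the CPM scale the sums were 259.9 and 248.4 in mutants, against 185.6, 200.7 and 219.7 in controls. Both mutants therefore lay above all controls, and the mutant mean was 1.26 times the control mean. CPM are shares of a library. In bulk samples such as these, the number of endothelial cells, their RNA per cell and the RNA of other cells cannot be told apart.

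By gene, 9 of the 10 had a positive log2 fold change, but Plvap alone passed the test. Over all 14572 genes tested 49.2% had a positive value and 6.11% were called higher, so 1 call among 10 is near the background. The median log2 fold change of the 10 genes was 0.34, against -0.01 over all genes. Counted another way, both mutants exceeded all controls in CPM for 7 of the 10 genes, where 21.7% of all genes tested did so, and fell below all controls for 1 gene, where 21.8% did so. Such counts were not tested. The genes were chosen with earlier results of these data known, and markers of the same cell type are not independent of each other. Before adjustment 3 of the 10 (Plvap, Cdh5 and Tie1) were higher at p under 0.05, against 13.6% of all genes. By edgeR 0 of the 10 were called lower, against 4.17% of all genes, and 0 were lower at an unadjusted p under 0.05, against 12.1%. DESeq2, limma-voom and the exact test of edgeR likewise called 0 lower.

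**Figure D1:**
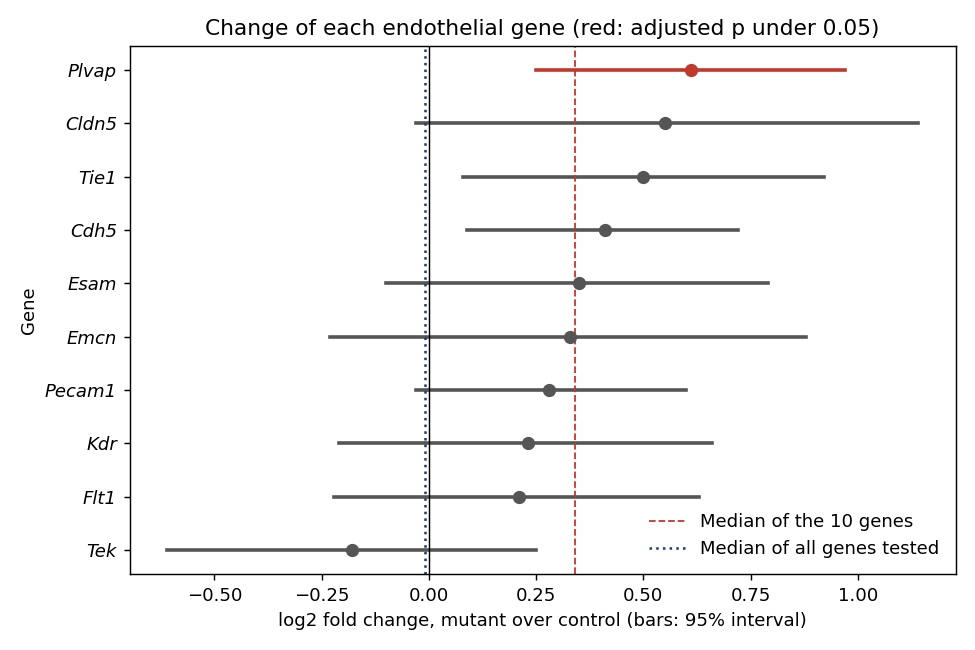
Log2 fold change of each endothelial gene, mutant over control (horizontal axis), from the edgeR fit, with bars for the 95% interval. Plvap (red) is the gene past an adjusted p of 0.05, 9 of 10 points lie right of zero, and the dashed and dotted lines mark the medians of the 10 genes (0.34) and of all genes tested (-0.01).

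Among the surface proteins, Plvap, which forms the diaphragms of capillary pores, showed the clearest difference. Its level was 30.6 and 32.6 CPM in mutants, against 18.4, 21.8 and 22.1 CPM in controls, from 346 and 423 reads against 334, 368 and 314. The groups did not overlap, and the gap between them was wider than the spread within either. The rise was 0.61 ± 0.17 log2 units (SE), or 1.52 times with a 95% interval of 1.19 to 1.96 (edgeR adjusted p = 0.0338). The call rested on few libraries: with control 1 left out the edgeR adjusted p was 0.137, with mutant 4 left out 0.137 and with mutant 6 left out 0.195. The deposited FPKM are values per transcript length, but they are not a fixed rescaling of the deposited counts. On that scale Plvap stood at 15.7 and 13.9 in mutants, against 7.90, 10.2 and 8.55 in controls, again without overlap. As log2(FPKM + 1) Plvap did not pass (limma adjusted p = 0.174).

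Emcn, a sialoglycoprotein of the endothelial surface that is strong on capillaries and veins, varied more between libraries than between groups. It was at 15.1 and 17.4 CPM in mutants, against 9.30, 12.0 and 17.8 CPM in controls. Control 3 was above both mutants and control 1 was the lowest, so the groups overlapped. The log2 fold change was 0.33 with a 95% interval of -0.23 to 0.88 (edgeR adjusted p = 0.455), which leaves room for no change and for nearly 0.9 log2 units. The SD of Emcn between controls, 0.47 on the log2 CPM scale, was the widest among the 10 genes, whose median was 0.14.

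Of the junction proteins, Cdh5 and Pecam1 had the most reads and the tightest intervals. Cdh5, the cadherin of endothelial adherens junctions, was at 51.4 and 48.6 CPM in mutants, against 34.4, 37.4 and 41.5 CPM in controls. The groups were apart, and the log2 fold change was 0.41 ± 0.15 (95% interval 0.09 to 0.72), with an unadjusted p of 0.0151 that gave an edgeR adjusted p of 0.0954. On the FPKM scale Cdh5 was at 11.8 and 12.1 in mutants, against 8.92, 8.90 and 8.96 in controls. The controls were almost identical there, with an SD of 0.0328 FPKM. Pecam1, the adhesion protein also called CD31, which platelets and some leukocytes carry as well, was at 61.4 and 53.3 CPM in mutants, against 42.1, 48.1 and 51.3 CPM in controls. Its lowest mutant was close above its highest control, and the log2 fold change of 0.28 had a 95% interval of -0.03 to 0.60 (edgeR adjusted p = 0.24).

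Esam, an adhesion molecule of endothelial tight junctions and platelets, was at 15.0 and 12.7 CPM in mutants, against 11.0, 11.0 and 10.8 CPM in controls. Both mutants were above the closely grouped controls, with a log2 fold change of 0.35 (95% interval -0.10 to 0.79; edgeR adjusted p = 0.317). Cldn5, the claudin that seals endothelial tight junctions, had the fewest reads, 87 and 144 in mutants against 107, 127 and 83 in controls. At 7.70 and 11.1 CPM in mutants, against 5.89, 7.52 and 5.84 CPM in controls, the groups were apart but mutant 4 was close to control 2. Its log2 fold change of 0.55 had the widest interval of the 10, -0.03 to 1.14 (edgeR adjusted p = 0.217), and counting error alone was 11.0% in the library with fewest reads. On the FPKM scale the mutants were 3.91 and 8.94, against 4.84, 5.16 and 3.92 in controls, so mutant 4 was the lowest of the 5 libraries and mutant 6 the highest.

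The receptors of vascular endothelial growth factor did not pass the test. Kdr, the main signalling receptor (VEGFR2), was at 34.1 and 25.0 CPM in mutants, against 23.9, 20.8 and 31.1 CPM in controls. The groups overlapped, the log2 fold change was 0.23 with a 95% interval of -0.21 to 0.66 (edgeR adjusted p = 0.519), and without mutant 4 it was -0.01. Flt1 (VEGFR1), which binds the ligand tightly but signals weakly, was at 14.8 and 17.6 CPM in mutants, against 13.4, 14.6 and 14.1 CPM in controls. Mutant 4 was barely above control 2, and the log2 fold change of 0.21 had a 95% interval of -0.22 to 0.63 (edgeR adjusted p = 0.546). Kdr stood at 2.87 and 1.45 times Flt1 in mutants on the FPKM scale, against 1.86, 1.97 and 2.99 times in controls, with overlap.

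The angiopoietin receptors had log2 fold changes of opposite sign, neither past the test. Tie1, the co-receptor that has no well known ligand of its own, was at 16.5 and 17.2 CPM in mutants, against 12.3, 11.7 and 11.8 CPM in controls. The groups were apart with little spread in either, and the log2 fold change was 0.50 ± 0.19 (95% interval 0.08 to 0.92; unadjusted p = 0.0225; edgeR adjusted p = 0.121). Tek, the receptor that binds the angiopoietins (also called Tie2), was at 13.3 and 12.9 CPM in mutants, against 15.0, 15.9 and 13.4 CPM in controls. It was the gene with a negative value, -0.18 (95% interval -0.61 to 0.25; edgeR adjusted p = 0.614), and mutant 4 was just under control 3. On the FPKM scale Tek overlapped between the groups, at 2.29 and 2.90 in mutants, against 3.13, 2.91 and 2.77 in controls.

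Ratios of reads between genes within a library need no scaling to library size, and the ratio most often set apart was one with Tek. Tie1 had 1.25 and 1.34 reads per Tek read in mutants, against 0.817, 0.736 and 0.880 in controls. Plvap had 2.31 and 2.53 reads per Tek read in mutants, against 1.22, 1.37 and 1.64 in controls. Of the 45 ratios between the 10 genes, 13 did not overlap between the groups, and 7 of those 13 had Tek in them out of the 9 that could. Among all pairs of the 14419 genes tested with a read in every library 42.7% of ratios did not overlap, so the count over the 45 was not above the background. With 2 libraries against 3, an exact two-sided permutation test cannot go below p = 0.2, the value for Tie1 over Tek, and these ratios were singled out after their values were seen. On the FPKM scale Tie1 was at 1.72 and 1.25 times Tek in mutants, against 1.19, 0.924 and 0.721 times in controls. Control 3 had the highest such ratio of the controls by reads but the lowest by FPKM. A fixed scaling for length would keep that order.

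**Figure D2:**
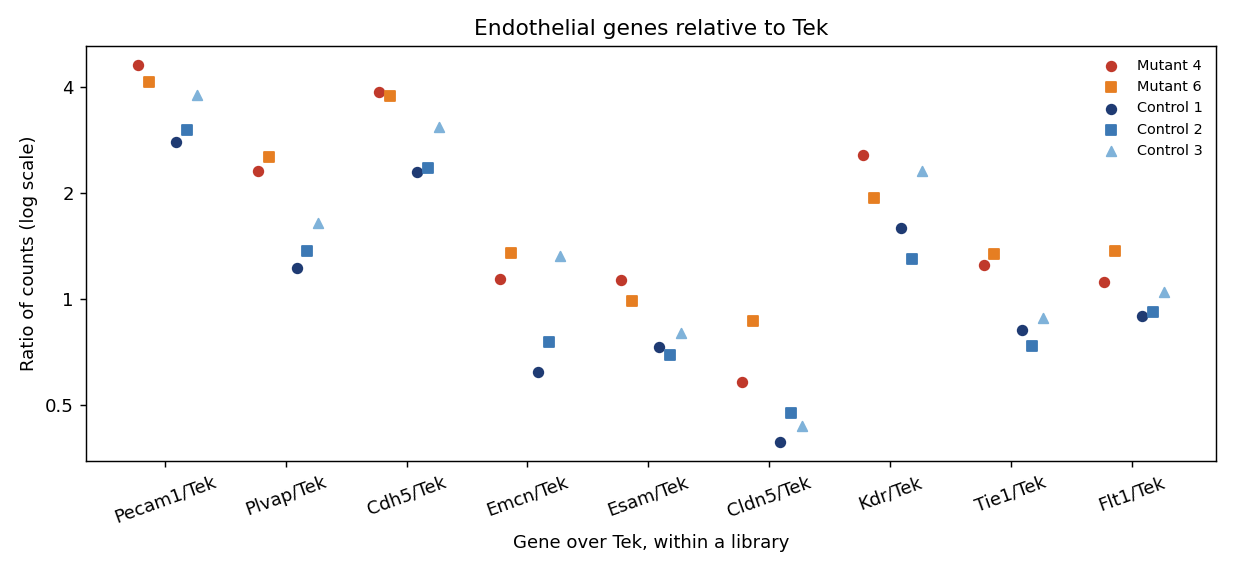
Ratio of reads of each other endothelial gene to reads of Tek within each library (vertical log axis, not scaled for length), with mutants left of controls for each gene. The mutant points lie above all control points for 7 of the 9 genes, and overlap them for Emcn and Kdr.

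The promoters of 6 of the 10 genes were found in the RefSeq promoter table (build GRCm38.p6, 250 bases before to 50 after the start). Endothelial genes are known to be driven by factors of the ETS family, whose binding core is GGAA. Printed below, 5′ to 3′ on the strand of the gene, are those of the 3 such genes with the highest mean FPKM and of the angiopoietin receptors, whose values had opposite signs, with GGAA or its complement TTCC in capitals.
Emcn: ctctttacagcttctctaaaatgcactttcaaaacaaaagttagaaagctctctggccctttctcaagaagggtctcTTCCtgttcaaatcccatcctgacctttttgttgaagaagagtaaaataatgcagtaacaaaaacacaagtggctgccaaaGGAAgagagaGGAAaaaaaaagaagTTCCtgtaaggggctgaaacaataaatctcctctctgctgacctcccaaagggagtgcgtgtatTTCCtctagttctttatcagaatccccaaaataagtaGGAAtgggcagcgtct
Cldn5: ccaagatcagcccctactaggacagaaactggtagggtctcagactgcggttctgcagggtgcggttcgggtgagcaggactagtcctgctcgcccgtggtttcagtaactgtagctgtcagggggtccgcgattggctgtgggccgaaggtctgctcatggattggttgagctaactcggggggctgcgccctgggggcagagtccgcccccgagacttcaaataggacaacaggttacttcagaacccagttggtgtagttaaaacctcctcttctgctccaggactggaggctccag
Kdr: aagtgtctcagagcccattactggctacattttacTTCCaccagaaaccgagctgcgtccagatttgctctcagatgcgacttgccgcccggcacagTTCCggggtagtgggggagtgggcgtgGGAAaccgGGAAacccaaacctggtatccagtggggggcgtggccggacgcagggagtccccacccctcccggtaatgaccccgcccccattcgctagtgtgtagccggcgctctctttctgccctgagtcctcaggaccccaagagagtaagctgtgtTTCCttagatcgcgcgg
Tie1: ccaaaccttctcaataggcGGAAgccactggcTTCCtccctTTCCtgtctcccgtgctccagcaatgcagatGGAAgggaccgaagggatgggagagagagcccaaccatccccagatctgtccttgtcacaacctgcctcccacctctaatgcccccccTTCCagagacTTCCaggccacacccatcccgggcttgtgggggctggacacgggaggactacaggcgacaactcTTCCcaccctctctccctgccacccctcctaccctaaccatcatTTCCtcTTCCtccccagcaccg
Tek: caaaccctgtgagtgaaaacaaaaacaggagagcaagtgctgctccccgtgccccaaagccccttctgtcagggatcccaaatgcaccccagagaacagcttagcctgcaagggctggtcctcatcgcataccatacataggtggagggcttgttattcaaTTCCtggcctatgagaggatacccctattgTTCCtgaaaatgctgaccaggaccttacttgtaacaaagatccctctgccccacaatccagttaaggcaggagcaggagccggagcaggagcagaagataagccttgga
These lie at chr3:137340828-137341127 (forward strand) for Emcn, chr16:18776597-18776896 (forward strand) for Cldn5, chr5:75978406-75978705 (reverse strand) for Kdr, chr4:118489800-118490099 (reverse strand) for Tie1 and chr4:94739039-94739338 (forward strand) for Tek. Counted on both strands, GGAA occurred 9 times at Tie1, 6 at Emcn, 5 at Kdr, 4 at Flt1, 2 at Tek and 0 at Cldn5. The core is short: 95.9% of 27025 promoters held it at least once, with a median of 3. The longer form CCGGAAG, held by 9.12% of promoters, was in none of the 6, and the GATA-type sequence AGATAA, held by 11.4%, occurred once, at Tek. CG dinucleotides are sites where Dnmt1 maintains methylation that is already present. They numbered 29 at Flt1, 19 at Kdr, 12 at Cldn5, 7 at Tie1, 3 at Tek and 2 at Emcn. The median over all promoters was 7. Methylation was not measured here.

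Per unit of transcript length, Pecam1 was the most abundant and Flt1 the least in all 5 libraries. Mean FPKM over the 5 libraries ran from 14.5 for Pecam1 through 11.3 for Plvap, 10.1 for Cdh5, 9.06 for Emcn, 5.95 for Esam, 5.36 for Cldn5, 4.80 for Kdr, 3.20 for Tie1 and 2.80 for Tek to 2.21 for Flt1. These are middle levels: Pecam1 exceeded 71.4% of the genes tested and Flt1 27.3%. Every neighbouring pair in that order had overlapping ranges over the libraries. Within each library Pecam1 exceeded Plvap, Emcn exceeded Esam, Kdr exceeded Tie1 and Tek exceeded Flt1, while the other neighbours changed places between libraries. Plvap ranked 2 in both mutants, and 3, 2 and 4 in controls 1, 2 and 3.

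**Figure D3:**
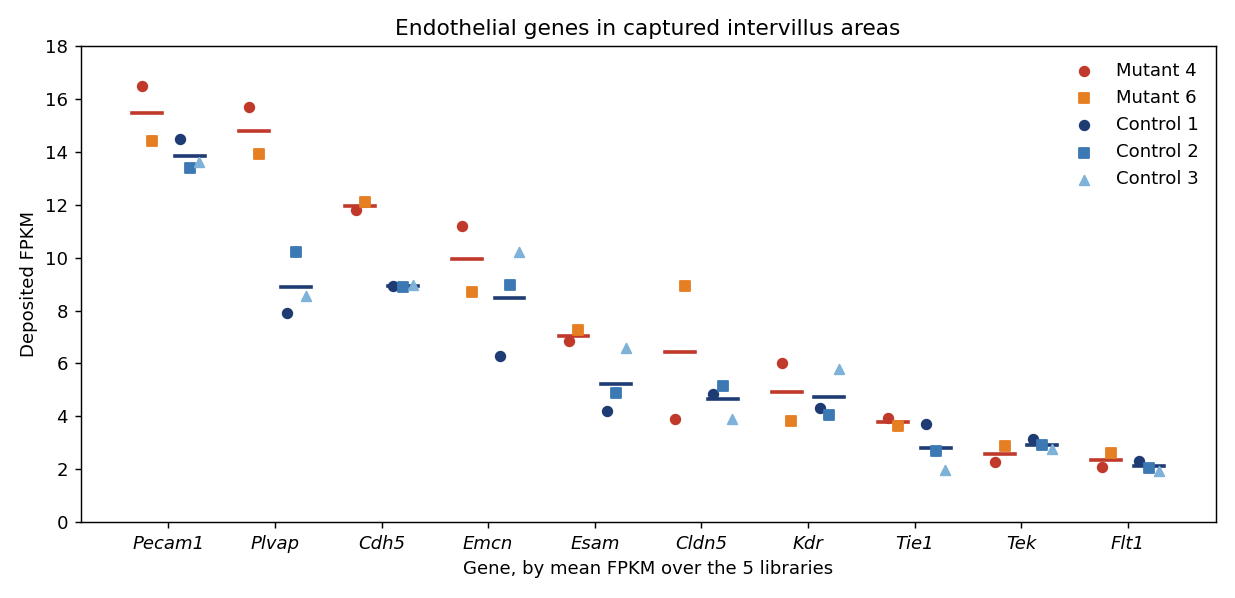
Deposited FPKM of the 10 endothelial genes (vertical axis) in each library, with mutants left of controls and a line at each group's mean. Mutants lie above all controls for Plvap, Cdh5 and Esam and overlap them for the other 7 genes.

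On this scale both mutants exceeded all controls for 3 of the 10 genes, namely Plvap, Cdh5 and Esam, where 16.6% of all genes tested did so, and both fell below all controls for 0, where 19.6% did so. The separation of Pecam1, Cldn5, Tie1 and Flt1 in CPM was thus not present in FPKM, nor was the lower place of Tek. The FPKM are not a fixed rescaling of the counts, and the cause of the difference between the scales was not tested.

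Other genes of the angiogenic pathway passed the test at near the background share. Of 13 genes tested of the growth factor and angiopoietin pathway, 1 was called, higher in mutants. Over all genes tested 6.11% were called higher, so 1 of 13 is near the background. The median log2 fold change was 0.28, or 0.16 without mutant 4, and 2 genes were called higher without control 3. The call was Vegfa, the growth factor that Kdr and Flt1 bind and that epithelial and stromal cells secrete. Vegfa was at 66.7 and 71.4 CPM in mutants, against 39.4, 46.1 and 42.5 CPM in controls, a rise of 0.69 ± 0.14 log2 units (edgeR adjusted p = 0.00596, and 0.0746 without mutant 6). Both mutants were well above all controls. Of those not called, the apelin receptor Aplnr averaged 69.2 CPM in mutants and 54.0 CPM in controls (edgeR adjusted p = 0.167), and Vegfb, a ligand of Flt1, 11.3 CPM in mutants and 13.9 CPM in controls (edgeR adjusted p = 0.38).

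A wider list of 25 endothelial genes had similar values. All 25 had a positive log2 fold change, where 49.2% of all genes tested did, and the median was 0.38. Of the 25, 2 were called higher (3 by the exact test of edgeR or without control 3), near the 6.11% over all genes. Before adjustment 11 of the 25 were higher at an edgeR p under 0.05, against 13.6% of all genes. Both mutants exceeded all controls in CPM for 11 of the 25, against 21.7% of all genes, and fell below them for 0, against 21.8%. Podxl, a sialomucin of the vessel lumen that mesothelium and some epithelia also make, was at 73.2 and 81.9 CPM in mutants, against 43.7, 45.5 and 46.1 CPM in controls (0.78 ± 0.13; edgeR adjusted p = 0.00209). Nos3, the endothelial nitric oxide synthase, was at 12.0 and 12.7 CPM in mutants, against 2.97, 4.02 and 3.45 CPM in controls (1.82 ± 0.27; edgeR adjusted p = 0.000716). The exons of Nos3 overlap those of Atg9b, a gene of the opposite strand, by 294 bases and those of Gm15587, an antisense gene, by 1040 bases. Atg9b had 507 and 356 reads in mutants, against 50, 88 and 81 in controls. The sources used here do not say whether counting used strand, so reads of Nos3 and of these genes there cannot be told apart. No exon of the 10 genes overlapped that of another gene in the GENCODE M21 annotation. The adrenomedullin co-receptor Ramp2 averaged 28.7 CPM in mutants and 20.9 CPM in controls, and the secreted vessel protein Egfl7 42.8 CPM in mutants and 32.0 CPM in controls, both with an edgeR adjusted p of 0.113.

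Of 16 transcription factors known in endothelium, including Erg, Fli1, Sox17 and Tal1, 0 were called by edgeR, limma-voom, DESeq2 or the exact test of edgeR. By edgeR 3 had an unadjusted p under 0.05, all with positive values, and the median was 0.33, or 0.13 without mutant 4. Both mutants exceeded all controls in CPM for 7 of the 16, where 21.7% of all genes tested did so. They fell below all controls for 0, where 21.8% did so. The summed level of the 16 overlapped between the groups, at 396.7 and 314.5 CPM in mutants, against 289.7, 303.8 and 325.6 CPM in controls. Ets2 weighed heavily in that sum, at 155.3 and 113.9 CPM in mutants, against 118.4, 129.8 and 146.9 CPM in controls. Ets2, which epithelium also makes, averaged 134.6 CPM in mutants and 131.7 CPM in controls, and Epas1, the hypoxia factor HIF-2 alpha, 65.3 CPM in mutants and 52.2 CPM in controls (edgeR adjusted p = 0.924 and 0.164). Taken with the 10 genes and the wider list, 48 of 51 endothelial genes had a positive value, where 49.2% of all genes tested did. Of the 51, 3 were called, all higher, near the 6.11% over all genes. These were Plvap, Podxl and Nos3, the last with the overlap of exons given above.

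Markers of vessel types were mixed, and some are also made by epithelium. Of 15 tested, 3 were called higher and 1 lower, against 6.11% and 4.17% of all genes tested. Positive log2 fold changes numbered 10 and negative ones 5. Cd36, a fatty acid receptor of capillaries and of enterocytes, was at 154.8 and 140.4 CPM in mutants, against 61.9, 84.8 and 57.9 CPM in controls (1.11 ± 0.16; edgeR adjusted p = 0.000663). Gja5, a connexin of arteries, averaged 8.22 CPM in mutants and 3.76 CPM in controls (edgeR adjusted p = 0.0301), and Unc5b, a netrin receptor of arteries, 29.0 CPM in mutants and 14.3 CPM in controls (edgeR adjusted p = 0.0042). Other arterial markers, named after their values were seen, went both ways, and none was called. Log2 fold changes were 0.55 for Gja4, 0.36 for Hey1, 1.26 for Hey2 and 0.20 for Notch4. They were -0.34 for Efnb2, -0.43 for Dll4 and -0.16 for Bmx. In CPM and FPKM both mutants were below all controls for Efnb2 and above them for Hey2. Ephb4, a receptor of veins that intestinal progenitors also carry, averaged 43.9 CPM in mutants and 65.2 CPM in controls (edgeR adjusted p = 0.0447). Without mutant 4 the calls of Gja5, Unc5b and Ephb4 were lost (edgeR adjusted p = 0.0738, 0.0933 and 0.213), and those of Gja5 and Ephb4 also without control 1 (0.122 and 0.174), control 3 (0.0603 and 0.0816) or mutant 6 (0.196 and 0.174). Ephb4 was also over 0.05 with limma-voom (adjusted p = 0.0631) and with upper-quartile normalization in edgeR (adjusted p = 0.0588). The capillary fatty acid carrier Fabp4 averaged 48.9 CPM in mutants and 39.4 CPM in controls (edgeR adjusted p = 0.297), and 1190002H23Rik, the table's name for Rgcc, 22.1 CPM in mutants and 12.5 CPM in controls (edgeR adjusted p = 0.089).

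Of 5 lymphatic markers 0 were called by the same 4 tests, with 1 (Pdpn, singled out after its value was seen) at an unadjusted p of 0.013 by edgeR. Lyve1, a hyaluronan receptor of lymphatic vessels and of some macrophages, averaged 53.0 CPM in mutants and 54.2 CPM in controls (edgeR adjusted p = 0.93), and Mmrn1 40.9 CPM in mutants and 32.8 CPM in controls (edgeR adjusted p = 0.221). Of red cell genes, which would come with vessel content, 5 were tested and 1, the haem synthesis gene Alas2, was called lower at 3.58 CPM in mutants and 7.27 CPM in controls (edgeR adjusted p = 0.0428, lost without any 1 of the 5 libraries, 0.0548 to 0.188, with limma-voom, 0.0651, and with upper-quartile normalization, 0.0504). Hba-a1, which shares its reads with its copy Hba-a2, averaged 22.4 CPM in mutants and 17.0 CPM in controls (edgeR adjusted p = 0.176). Of the 5 tested, 4 had positive values, with both copies counted, and the median was 0.40. The 7 red cell genes found summed to 69.2 and 68.6 CPM in mutants, against 50.4, 56.9 and 62.7 CPM in controls. That is 1.22 times, with the shared reads of the copies counted for each.

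Other cells of the tissue beneath the epithelium also had higher sums in mutants; the differences between lists were not tested. Summed CPM in mutants relative to controls were 1.26 times for the 10 endothelial genes, 1.33 times for 9 pericyte markers, 1.31 times for 7 basement membrane genes, 1.48 times for 10 fibroblast markers, 1.63 times for 6 smooth muscle markers, 1.91 times for 11 macrophage and immune markers and 2.05 times for 6 neuron and glia markers. For 10 epithelial markers the ratio was 0.963. Both mutants were above all controls in each of these sums except the epithelial one, which overlapped. Fibroblast markers, for example, summed to 1639.3 and 1584.1 CPM in mutants, against 1016.3, 1093.3 and 1162.9 CPM in controls. Single genes weighed heavily in some sums. The collagens Col3a1, Col1a2 and Col1a1 made up most of the fibroblast sum. They averaged 462.0, 374.7 and 332.3 CPM in mutants (list sum 1611.7), and 302.2, 241.0 and 226.7 CPM in controls (list sum 1090.8). Without Csf1r, left out after its value was seen, the macrophage and immune ratio was 1.45, and without S100b the neuron and glia ratio was 1.56, and the groups still did not overlap. By gene the lists lay closer together: the median log2 fold change was 0.34 for the 10 endothelial genes, 0.42 for pericyte, 0.41 for basement membrane, 0.55 for fibroblast, 0.81 for smooth muscle, 0.37 for macrophage and immune, 0.40 for neuron and glia and -0.12 for epithelial markers. Without mutant 4 the median was 0.41 for smooth muscle, 0.23 for macrophage and immune and 0.75 for neuron and glia markers, and without control 2 it was -0.07 for epithelial markers. The part of these cells in the endothelial values was not tested.

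**Figure D4:**
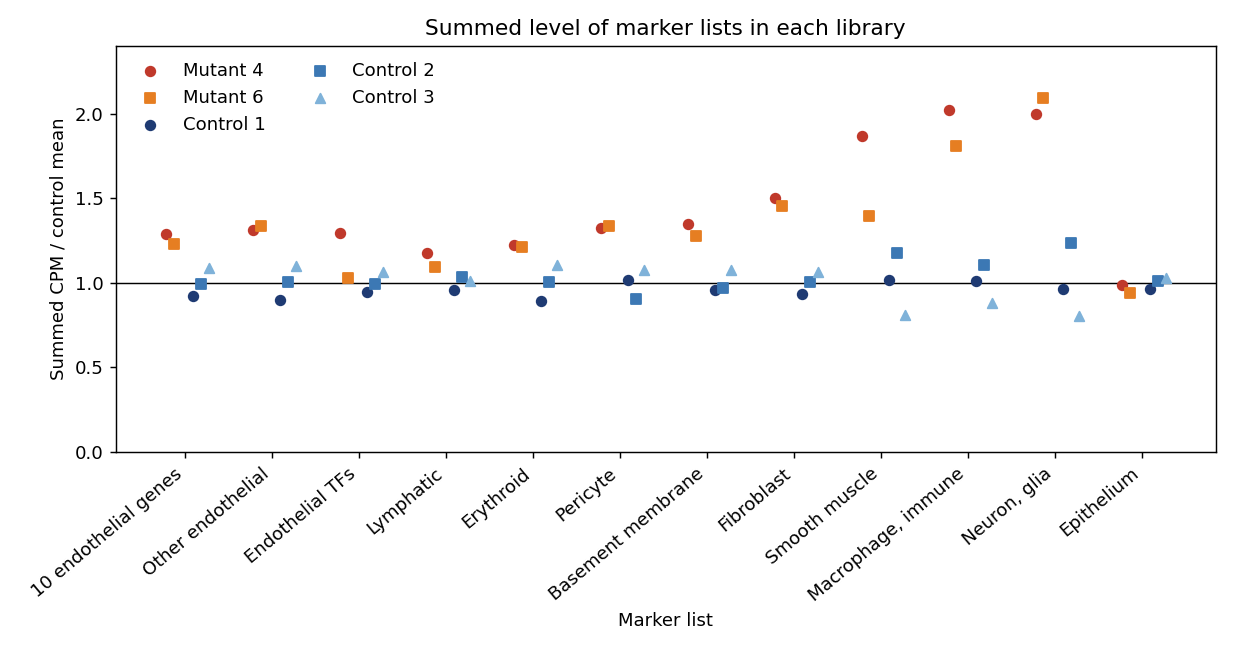
Summed CPM of each marker list in each library, divided by the mean of the controls (vertical axis), with mutants left of controls. The 10 endothelial genes stand at a mean of 1.26 in mutants, below fibroblast (1.48), smooth muscle (1.63) and macrophage (1.91, or 1.45 without Csf1r) markers, while epithelial markers stand at 0.963.

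Reads of the 10 endothelial genes kept different proportions to different neighbours. They came to 6.16% and 6.15% of the reads of the 10 epithelial markers in mutants, against 4.50%, 4.63% and 4.99% in controls. Against fibroblast markers they came to 15.9% and 15.7% in mutants, but 18.3%, 18.4% and 18.9% in controls. Against macrophage and immune markers they came to 70.8% and 75.6% in mutants, and 100.9%, 99.8% and 137.1% in controls. Without Csf1r the gap to immune markers was narrow, with 135.1% and 147.3% in mutants, against 151.1%, 153.2% and 184.8% in controls. The groups overlapped against pericyte markers, with 172.0% and 162.8% in mutants, against 159.5%, 193.9% and 178.6% in controls. They also overlapped against smooth muscle markers, with 69.2% and 88.6% in mutants, against 90.8%, 84.9% and 134.8% in controls. Against the other 25 endothelial genes the proportion was 43.8% and 41.3% in mutants, close under the 45.8%, 44.4% and 44.3% of controls.

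Named markers of those cells give the scale of single genes. Over all genes tested 6.11% were called higher and 4.17% lower. Of 8 pericyte markers tested 1 was called, Rgs5, a regulator of G protein signalling, at 16.3 CPM in mutants and 7.76 CPM in controls (1.06 ± 0.28; edgeR adjusted p = 0.0292, and over 0.05 without control 1, mutant 4 or mutant 6). The pericyte receptor Pdgfrb averaged 35.1 CPM in mutants and 27.0 CPM in controls (edgeR adjusted p = 0.184). Of 7 basement membrane genes 1 was called, Nid1, at 184.4 CPM in mutants and 130.7 CPM in controls (edgeR adjusted p = 0.0213, and over 0.05 without control 1, mutant 4 or mutant 6), and 3 were called without control 3. DESeq2 called 4 of the 7, limma-voom 2, the exact test of edgeR 3, edgeR with upper-quartile normalization 3 and edgeR with no filter on low counts 4. Of 9 fibroblast markers 5 were called higher (3 without control 1, 0 without mutant 4 and 1 without mutant 6), among them the collagen Col3a1 at 462.0 CPM in mutants and 302.2 CPM in controls (edgeR adjusted p = 0.00665, and over 0.05 without either mutant). Of 11 macrophage and immune markers 3 were called higher, and the growth factor receptor Csf1r was at 174.6 and 159.9 CPM in mutants, against 61.1, 70.1 and 41.4 CPM in controls (1.54 ± 0.18; edgeR adjusted p = 0.000123). Of 6 smooth muscle markers 2 were called higher (0 without control 1 or mutant 4, and 4 without mutant 6, with DESeq2, with the exact test or with no filter on low counts), and of 4 neuron and glia markers tested 1, the glial calcium-binding protein S100b, at 22.9 CPM in mutants and 6.73 CPM in controls (edgeR adjusted p = 0.000107). In that list 2 were called without control 2 or mutant 6, and the defining glial factor Sox10 was near 0, at 0.657 CPM in mutants and 0.256 CPM in controls. Of the 10 epithelial markers the keratin Krt18 was called higher and the intestinal transcription factor Cdx2 lower (edgeR adjusted p = 0.00255 and 0.00454). The log2 fold change of Krt18 was 0.79, or 0.65 without mutant 4. Of the same 10, 2 were called lower with the exact test, with no filter on low counts or without control 3. On log2(FPKM + 1) with all rows, none of the genes named here as called from the other lists passed limma. Among rows with a mean FPKM of at least 1, Csf1r, S100b and Cd36 did pass (limma adjusted p = 0.0151, 0.013 and 0.0233). Exons of Csf1r, Gja5, Ephb4, Nid1 and Alas2 also overlap a gene of the opposite strand.

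Many genes outside the vessel lists had the same pattern. Among 10906 tested genes with a mean of at least 5 CPM and in no list, 326 (2.99%) had centred log2 CPM within a root mean square difference of 0.1 of the summed endothelial level over the 5 libraries. The nearest were Wtap, Yod1, Pla2g4a, Fhl2 and Yipf3, at differences of 0.02 to 0.035, and none of these 5 was called by edgeR (adjusted p = 0.108 to 0.24).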

How the data were processed

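For each RefSeq transcript (28644 rows) and library the authors deposited a raw read count and an FPKM value, in separate tables. Per the submitters' processing notes, build mm9 and edgeR were used; no aligner, counter or version is given in the sources used here. RNA was amplified before library preparation, per the labels' protocols, so reads are not independent molecules and counting errors cover counting only. In 41 rows a spreadsheet date was replaced by the symbol of the transcript in the RefSeq table of GRCm38.p6. Of 154 list entries 153 were found, Rgcc under an older name. Deposited counts went unchanged into the quasi-likelihood test of edgeR 4.0.16 under R 4.3.3 (default filter, TMM normalization, 3 residual degrees of freedom), with Benjamini-Hochberg adjustment over 19353 rows. CPM are counts scaled to the reads of all rows that passed the filter, where a gene can have more than 1 row, with TMM factors. Percentages of reads were taken over 1 row per gene, so they do not match CPM. SE is the log2 fold change over the square root of F, and intervals are at 95%. A gene was called at an adjusted p under 0.05 in its row of highest mean count. Alternatives used DESeq2 1.42.0, limma 3.58.1 and the deposited FPKM with a pseudocount of 1 or 0.1. The members and lists were chosen with earlier results of these data known. Beside the members, genes were named by rule. These were the genes called in each list (at most 4, by size of change) and the 2 not called with the highest mean FPKM. The 5 nearest in pattern were also named. Some of these are given by count alone, and other arterial markers were named after their values were seen.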

Additional observations from a re-analysis of the deposited data

How the results depend on the processing

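Over the 16 alternatives, 9 of the 10 endothelial genes kept their direction in each, and Kdr turned to -0.01 without mutant 4 (range over left-out libraries -0.01 to 0.43). The median of the 10 genes stayed between 0.27 and 0.44. Plvap was the gene called in 10 of the 16, and not without control 1, mutant 4 or mutant 6, nor on the deposited FPKM (limma adjusted p = 0.09 to 0.174). Leaving out 1 library gave 0 to 1 of the 10 genes called higher, 408 to 1057 genes called higher in all and 170 to 645 lower, against 891 and 608. These were 537 and 251 without control 1, 408 and 170 without mutant 4 and 545 and 210 without mutant 6. On log2(FPKM + 1), 0 of the 10 were called, with 97 genes higher and 13 lower in all. With a pseudocount of 0.1 these were 0, 155 and 36, and with a mean FPKM of at least 1 they were 0, 258 and 131. With no filter on low counts 935 genes were called lower. The cause was not tested. Without a mutant the lone one is assumed to vary as the controls do. No paired analysis was possible because the groups share no replicate number.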
